A study of Mus musculus with 12 samples.

Results

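Activated mast cells secrete growth factors and peptide hormones beside their granule contents and cytokines. The mRNAs of 8 such genes, *Areg*, *Hbegf*, *Vegfa*, *Csf1*, *Inhba*, *Adcyap1*, *Amh* and *Tgfb1*, were followed here in bone marrow-derived mast cells (BMMCs), out of 16234 genes in the count table. The genes were picked by symbol, with their change on activation in these same libraries known, although *Tgfb1* did not change 2-fold in any genotype and *Amh* was called higher only in WT. The change on activation is therefore given as a description, with no test. All 8 passed the filter on low counts, but *Areg*, *Inhba* and *Adcyap1* passed only through the stimulated libraries, in which they were high, and so had to differ between the states.

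The 12 RNA-seq libraries fall into 6 groups of 2, given by the *Elk4* genotype label of the donor mice (WT, HZ for heterozygous, KO for a conventional knockout) and by treatment. Cells from femurs and tibias were grown for 4 to 8 weeks in IL-3 and stem cell factor, and in every genotype they were the culture product of whole marrow, of which more than 80% stained for both KIT and the high-affinity IgE receptor FcϵRI. Stimulated cells had been loaded overnight with 0.5 μg/ml of IgE against dinitrophenyl (DNP) and received 100 ng/ml of DNP coupled to human serum albumin (HSA) for 1 h, while unstimulated cells are labelled as untreated. The study used mice of both sexes, aged 6 to 12 weeks, on a C57BL/6N background, with WT littermates as controls. Which sex the donors of each group had is not stated. Whether unstimulated cells received IgE is not given in the sources used here. The labels do not state that the 2 libraries of a group came from separate mice or cultures, so the p-values measure only the spread between these libraries, which may be technical.

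Library totals ran from 29697958 to 35531667 counts. Whole-gene counts of the targeted gene did not follow the order of the labels. Scaled to a common library size, the genotypes stood apart at rest, but with HZ highest and KO lowest. After stimulation, KO and WT libraries overlapped. *Elk4* had 1867 to 2613 counts in libraries labelled KO and 1995 to 2740 in libraries labelled WT, and KO against WT differed by -0.19 on the log2 scale in unstimulated libraries (SE 0.06, adjusted p = 0.0087) and by -0.10 in stimulated libraries (adjusted p = 0.21). Such counts check a knockout only where the deleted part carries the reads, and that part is not given in the sources used here. The study examined the deletion by western blotting, which was not analysed here. Among the mast cell markers, *Hdc*, the histamine-forming enzyme gene, stood at 16.9 and 17.1 CPM (counts scaled to a common library size) in unstimulated KO libraries, against 131 and 122 in WT. The genotypes are called by their labels throughout. Mast cell markers summed to 46890 to 57586 CPM over 11 genes. Macrophage and monocyte markers summed to 8.18 to 21.3 CPM over 9 genes, and neutrophil markers to at most 0.269 CPM over 5 genes. Basophil markers summed to 465 to 674 CPM over 3 genes, nearly all of it *Cd200r3*. Megakaryocyte markers summed to 1511 to 2421 CPM over 2 genes, nearly all of it *Itga2b*.

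The genes fall into several signalling systems. AREG (amphiregulin) and HB-EGF are membrane-anchored ligands of the EGF receptor that ADAM proteases cut free. VEGFA drives the growth and leakiness of blood vessels, and CSF1 (M-CSF) keeps macrophages alive through the receptor CSF1R. TGF-β1, activin A (a dimer of the *Inhba* product) and anti-Müllerian hormone (AMH) are related dimeric ligands of the TGF-β superfamily. PACAP, the neuropeptide encoded by *Adcyap1*, signals through G protein-coupled receptors. Mast cells are a known source of several of these factors at sites of allergic inflammation and wound repair.

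The upstream sequences of the genes show which short motifs they carry. RefSeq promoter windows were matched by symbol for 6 of the 8 genes, and the 250 bases before the start site were searched on both strands. These genes have 8 windows in all. The table holds 32851 such windows. The cAMP response element core ACGTCA was present in the first windows of *Areg* and *Adcyap1*, in the second windows of *Adcyap1* and *Vegfa*, and in 6.47% of all windows, first or later. A kappa B motif was present in the first windows of *Csf1* and *Vegfa* and in 3.9% of all windows. The first window of *Inhba* had no match to any of the 8 motifs searched and is printed for contrast. The sequences below are from GRCm38.p6, 5′ to 3′ on the gene's strand, with the cAMP response element (*Areg*, *Adcyap1*) or the kappa B match (*Csf1*, *Vegfa*) in capitals:
*Areg*, chr5:91139349-91139598, plus strand: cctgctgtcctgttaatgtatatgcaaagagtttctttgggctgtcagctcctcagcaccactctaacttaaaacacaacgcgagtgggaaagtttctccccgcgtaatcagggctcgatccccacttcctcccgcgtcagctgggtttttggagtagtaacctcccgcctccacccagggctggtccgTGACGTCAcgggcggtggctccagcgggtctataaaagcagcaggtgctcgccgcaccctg
*Adcyap1*, chr17:93198767-93199016, plus strand: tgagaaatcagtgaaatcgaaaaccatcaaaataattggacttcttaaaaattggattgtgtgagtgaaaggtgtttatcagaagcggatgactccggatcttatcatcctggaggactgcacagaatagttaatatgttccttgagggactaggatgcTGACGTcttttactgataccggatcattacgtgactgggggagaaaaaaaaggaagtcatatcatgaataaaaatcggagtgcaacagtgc
*Csf1*, chr3:107760470-107760719, minus strand: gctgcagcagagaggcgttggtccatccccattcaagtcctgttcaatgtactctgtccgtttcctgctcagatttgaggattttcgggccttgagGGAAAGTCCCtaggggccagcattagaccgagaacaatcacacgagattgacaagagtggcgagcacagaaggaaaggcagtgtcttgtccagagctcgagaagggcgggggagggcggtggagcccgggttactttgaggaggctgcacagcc
*Vegfa*, chr17:46032378-46032627, minus strand: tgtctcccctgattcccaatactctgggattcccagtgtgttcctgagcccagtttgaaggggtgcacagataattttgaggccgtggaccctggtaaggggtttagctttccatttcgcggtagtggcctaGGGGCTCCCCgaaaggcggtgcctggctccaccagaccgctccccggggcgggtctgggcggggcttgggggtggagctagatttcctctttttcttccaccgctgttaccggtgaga
*Inhba*, chr13:16011601-16011850, plus strand: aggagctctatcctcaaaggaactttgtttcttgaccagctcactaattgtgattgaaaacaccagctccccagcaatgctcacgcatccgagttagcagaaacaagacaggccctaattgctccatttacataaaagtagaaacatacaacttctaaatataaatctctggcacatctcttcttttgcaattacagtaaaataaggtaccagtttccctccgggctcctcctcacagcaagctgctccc

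In *Areg* the core matched on both strands, as overlapping matches 61 to 54 bases before the start site, and the SP/KLF motif GGGCGG followed 52 to 47 bases before it. In *Adcyap1* the core matched on the minus strand, 91 to 86 bases before the start site. In the second windows, which are not printed, it lay 242 to 237 bases before the *Adcyap1* start and 210 to 205 bases before the *Vegfa* start. The kappa B matches lay 154 to 145 bases before the *Csf1* start and 118 to 109 bases before the *Vegfa* start. GGGCGG was found in 32.7% of all windows, 2 times each in the first windows of *Csf1* and *Vegfa* and 5 times in that of *Tgfb1*. AP-1 (TGANTCA, 6.75% of windows), ETS (CCGGAAG, 6.91%), the CArG box (1.47%), the MITF E-box (CACGTG or CATGTG, 17.6%) and NFAT (GGAAAA, 20.4%) had no match in the windows of these genes. A match of letters is not a measured binding site, and a window without a match says nothing of the factor. The windows come from GRCm38, whereas GRCm39 is the build named in the submitters' processing notes.

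Per length, *Csf1* and *Tgfb1* were the most abundant of the 8 mRNAs in both states. In unstimulated WT libraries, *Tgfb1* stood at 321 ± 1.35 FPKM (the deposited length-scaled unit, SD, n = 2), *Csf1* at 94.0 ± 1.14, *Vegfa* at 11.9 ± 0.0232, *Hbegf* at 1.82 ± 0.182 and *Amh* at 0.230 ± 0.101. In stimulated WT libraries the order began with *Csf1* at 825 ± 14.7 FPKM, followed by *Tgfb1* at 380 ± 9.51, *Hbegf* at 53.8 ± 2.81 and *Vegfa* at 49.97 ± 0.232. *Hbegf* and *Vegfa* were neighbours in that order, and their libraries did not overlap. Lower down stood *Areg* at 5.98 ± 0.297 FPKM, *Amh* at 0.544 ± 0.115, *Inhba* at 0.275 ± 0.0557 and *Adcyap1* at 0.0473 ± 0.0107. *Csf1* alone made up 0.372% and 0.381% of all counts in the 2 stimulated WT libraries.

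**Figure D1:**
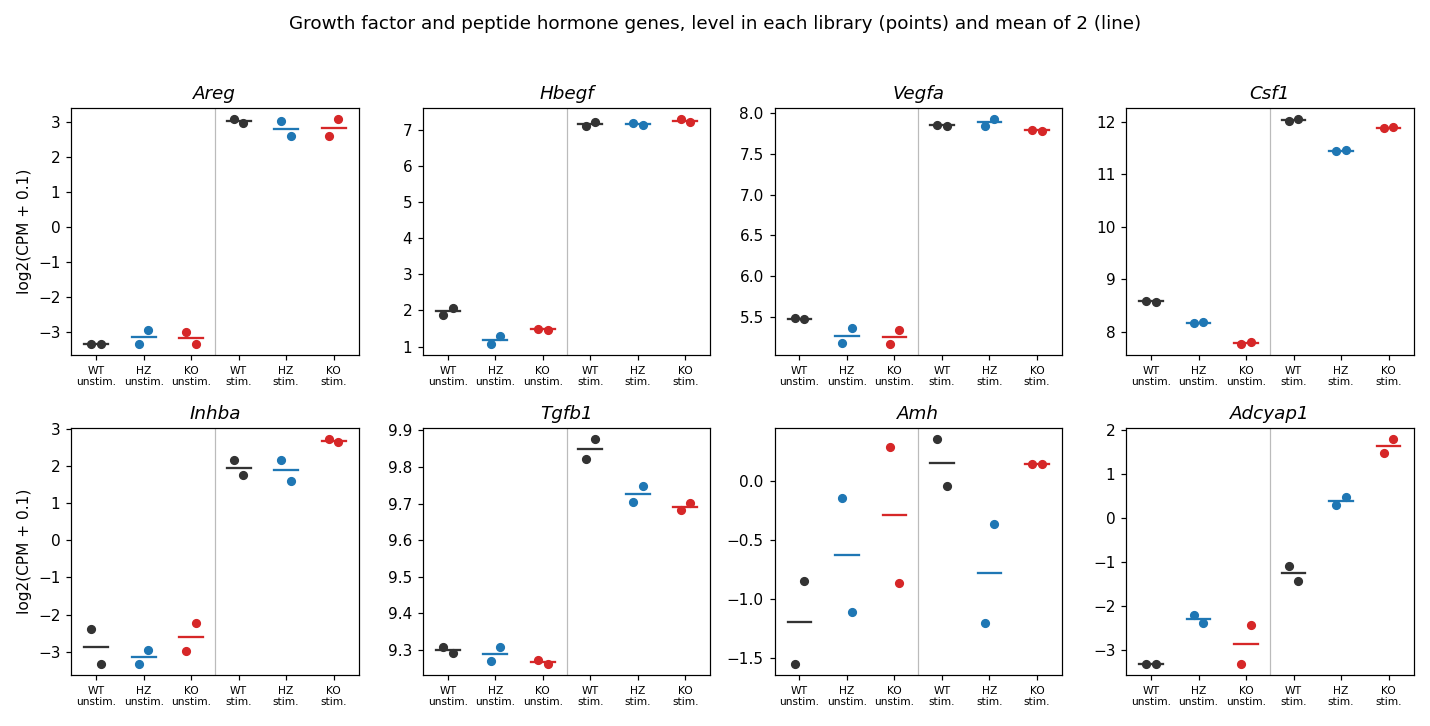
Level of each gene on the y axis, as log2(CPM + 0.1), by genotype label and treatment on the x axis; points are the 12 libraries, lines are means of 2, and each panel has its own y scale. Stimulated libraries lie above unstimulated ones for every gene but *Amh*, whose HZ and KO libraries overlap between the states, and *Adcyap1* climbs from WT through HZ to KO after stimulation.

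The EGF receptor ligands started from little or no mRNA. *Areg* had 0 and 0 counts in the unstimulated WT libraries, 0 and 1 in HZ, with 1 and 0 in KO, and a count of 0 allows a level of up to 3 counts. After stimulation it had 247 and 231 counts in WT, 263 and 177 in HZ, with 165 and 239 in KO. Every stimulated library stood far above every unstimulated one, and the 3 genotypes overlapped. The WT level was at least 91.2-fold higher than the floor of 3 counts per library. In HZ, 440 stimulated against 1 unstimulated count gave a ratio of 478, and in KO 404 against 1 gave 521, with exact 95% counting intervals of 85.3 to 18906 and 93.0 to 20624.

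*Hbegf* had a low level at rest. It stood at 3.59 and 4.12 CPM in unstimulated WT libraries, 2.02 and 2.33 in HZ, with 2.72 and 2.65 in KO, and at 136 and 147 CPM in stimulated WT, 144 and 140 in HZ, with 155 and 148 in KO. The unstimulated groups were apart from each other, with WT highest and HZ lowest, while the stimulated WT and HZ libraries overlapped. The log2 change on stimulation was 5.19 ± 0.08 (SE) in WT, 6.03 ± 0.09 in HZ and 5.82 ± 0.08 in KO.

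*Vegfa* was already present at rest. It went from 44.6 and 44.4 CPM to 232 and 230 in WT, from 36.02 and 41.1 to 230 and 243 in HZ, and from 35.9 and 40.4 to 222 and 221 in KO. The log2 change was 2.37 ± 0.05, 2.62 ± 0.05 and 2.54 ± 0.05. The stimulated levels of the 3 genotypes lay within a range of 221 to 243 CPM, and each was above every unstimulated library.

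*Csf1* was the most abundant of the genes after stimulation, per length. Unstimulated libraries stood at 388 and 379 CPM in WT, 287 and 291 in HZ, with 220 and 225 in KO. Stimulated libraries stood at 4112 and 4220 CPM in WT, 2783 and 2807 in HZ, with 3771 and 3808 in KO. Replicates lay close together, and no group overlapped another in either state. KO had the lowest level at rest and the middle level after stimulation. Its log2 change on stimulation was 4.09 ± 0.03, against 3.44 ± 0.02 in WT and 3.27 ± 0.02 in HZ, which are folds of 17.0, 10.9 and 9.67.

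The ligands of the TGF-β superfamily fell into 3 patterns. *Inhba*, which encodes the subunit of activin A, had 3 and 0 counts in unstimulated WT, 0 and 1 in HZ, with 1 and 4 in KO. After stimulation it had 129 and 97 counts in WT, 144 and 86 in HZ, with 179 and 178 in KO. The KO libraries were the highest of the stimulated ones. Stimulated over unstimulated counts gave ratios of 86.3 in WT (exact 95% counting interval 29.1 to 421), 250 in HZ (44.4 to 9903) and 92.1 in KO (39.1 to 285).

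*Tgfb1*, a cytokine that restrains immune cells, was abundant at rest and changed little. It went from 634 and 627 CPM to 906 and 939 in WT, from 618 and 635 to 835 and 861 in HZ, and from 619 and 614 to 821 and 833 in KO. The log2 change was 0.55 ± 0.03 in WT, 0.44 ± 0.03 in HZ and 0.42 ± 0.03 in KO. None of these reached 2-fold. Scaled by library totals, which put the median log2 change of all genes at -0.32 in WT, -0.24 in HZ and -0.30 in KO, it was 0.24 (WT), 0.21 (HZ) and 0.14 (KO).

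*Amh*, the hormone that makes the Müllerian ducts regress in male embryos, stayed near the limit of detection. It had 8 and 16 counts in unstimulated WT and 35 and 26 in stimulated WT, which did not overlap. HZ had 28 and 12 unstimulated against 11 and 20 stimulated, and KO had 42 and 16 against 28 and 29. The states overlapped in both. The log2 change was 1.54 ± 0.61 in WT, -0.23 ± 0.61 in HZ and 0.35 ± 0.55 in KO. The gene next to *Amh* in the RefSeq order is the splicing factor gene *Sf3a2*, at 45.3 to 94.3 CPM in every library, and its part in the reads counted for *Amh* was not tested.

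*Adcyap1*, the PACAP precursor gene, was nearly silent at rest, with 0 and 0 counts in WT, 4 and 3 in HZ, with 0 and 3 in KO. After stimulation it had 11 and 8 counts in WT, 37 and 38 in HZ, with 74 and 96 in KO. These 3 groups stood apart in that order. The stimulated WT level was at least 3.62-fold higher than the floor of 3 counts per library. The ratio of stimulated to unstimulated counts was 11.6 in HZ (exact 95% counting interval 5.38 to 29.9) and 73.1 in KO (24.6 to 358). Intervals and floors cover counting error only.

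At an adjusted p below 0.05 and a change of at least 2-fold, the calls of a higher level numbered 7 of the 8 genes in WT and 6 each in HZ and KO. The shares of all 12208 tested genes called higher were 3.71%, 7.02% and 3.73%. Since the response chose the genes, nothing is read from these counts. *Tgfb1* was not called in any genotype, and *Amh* was called in WT alone.

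**Figure D2:**
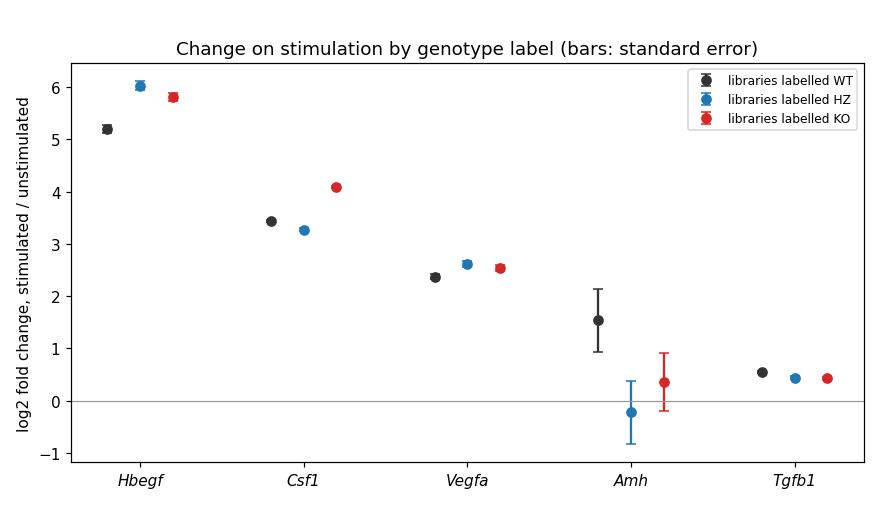
Log2 fold change on stimulation (y axis) of the 5 genes with at least 8 counts in every library, by genotype label; points are estimates and bars are standard errors. *Hbegf* lies at 5.19 to 6.03, *Csf1* is highest in KO at 4.09, *Vegfa* lies at 2.37 to 2.62, *Tgfb1* at 0.42 to 0.55, and *Amh* has the widest bars.

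The size of the change differed between genotype labels for some of these genes. For *Csf1* the log2 change in KO exceeded that in WT by 0.65 ± 0.03 (SE) and that in HZ by 0.82 ± 0.03. For *Hbegf* it exceeded WT by 0.62 ± 0.15 in KO and by 0.84 ± 0.16 in HZ. *Vegfa* followed with 0.17 ± 0.07 in KO and 0.24 ± 0.07 in HZ, and *Tgfb1* with -0.12 ± 0.04 and -0.11 ± 0.04. These differences contain the response for which the genes were chosen and were not tested.

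Genotype comparisons within one state were tested. They share their libraries with the change on activation that was known when the genes were picked, so they are not fully independent of that choice. In unstimulated cells, the question was whether the labelled genotype altered resting levels. *Csf1* was lower in KO than in WT by 0.79 on the log2 scale, a fold of 0.580 (222 ± 4.18 against 384 ± 6.20 CPM, SD, n = 2, adjusted p = 1.23e-30 with edgeR). It passed the threshold of a fold of at least 1.5 or at most 0.66. In HZ it was intermediate, 0.41 lower than WT (SE 0.02, adjusted p = 5.28e-20), and KO was 0.38 lower than HZ (SE 0.02, adjusted p = 4.52e-18). Both differences were larger than the spread between libraries but smaller than the fold threshold. Fewer cells of a type and less RNA per cell cannot be told apart in such bulk samples.

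*Hbegf* was lower in unstimulated HZ than in WT by 0.83 on the log2 scale (SE 0.15, adjusted p = 5.22e-06), a fold of 0.563, which passed. In KO it was lower by 0.52 (SE 0.14, adjusted p = 0.0016), a fold of 0.696 that did not pass, although it did without the first WT library, at -0.61. KO and HZ differed by 0.31 with a 95% confidence interval of -0.01 to 0.62 (adjusted p = 0.11). *Vegfa* was lower by 0.22 in KO and by 0.21 in HZ (SE 0.06 for both, adjusted p = 0.00083 and 0.0017), neither past the fold threshold, and the KO to HZ interval was -0.13 to 0.10. Without the first KO library the KO difference was -0.14 (adjusted p = 0.087), and without the first HZ library the HZ difference was -0.11 (adjusted p = 0.15).

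*Adcyap1* was called higher in unstimulated HZ than in WT (adjusted p = 0.031), but on 7 counts against 0. Without the first or the second WT library, or without the first HZ library, the adjusted p was 0.11, 0.12 and 0.080. *Tgfb1* differed by at most 0.03 in size between any pair of genotypes at rest, and its KO against WT interval ran from -0.09 to 0.02. *Amh* intervals were wide, -0.07 to 2.38 for KO against WT, and *Areg* and *Inhba* had too few counts at rest for a fold.

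Of the 8 genes, 1 was called in unstimulated KO against WT and 2 in HZ against WT, where 12.7% and 16.7% of all tested genes were called in either direction. In KO against HZ edgeR called 0 and DESeq2 0, with 1 gene at an unadjusted p below 0.05, beside 9.6% of all genes. By adjusted p alone 3, 4 and 1 of the 8 passed in these comparisons, beside 44.6%, 51.4% and 45.2% of all genes, and the libraries did not overlap for 71.2%, 73.6% and 70.5% of all genes. Summed macrophage and monocyte markers were 8.18 to 9.49 CPM in unstimulated WT libraries, 15.7 to 17.5 in HZ and 15.1 to 16.4 in KO, over 9 genes of which 4 were tested. Most of that difference lay in *Lyz2*, at 3.95 and 4.57 CPM in WT, 9.10 and 11.4 in HZ, then 9.65 and 12.2 in KO. *Csf1r* stood at up to 0.392 CPM, and *C1qa* and *C1qb* at up to 0.121 in WT and at 0 in the other 2 genotypes. Basophil markers summed to 596 to 601 CPM in WT, 673 to 674 in HZ and 469 to 473 in KO, nearly all *Cd200r3*. The other basophil markers did not follow that sum. *Mcpt8* stood at 4.68 and 5.57 CPM in WT, 5.41 and 6.34 in HZ, then 7.71 and 8.51 in KO. *Prss34* stood at 0.423 and 0.486 CPM in WT, 1.61 and 1.03 in HZ, then 1.17 and 0.761 in KO. Megakaryocyte markers summed to 1696 to 1739 CPM in WT, 2413 to 2421 in HZ and 1694 to 1701 in KO. The part of these markers in the differences at rest was not tested.

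**Figure D3:**
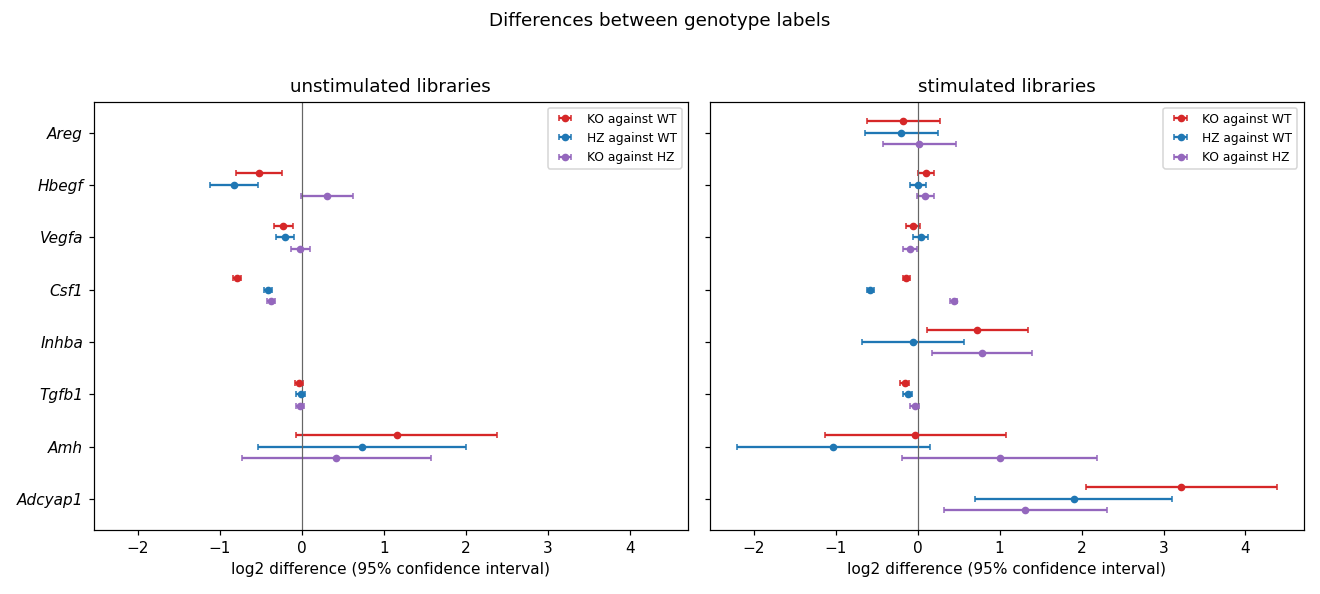
Log2 difference between genotype labels (x axis, with 95% confidence intervals as bars) for each gene (y axis) in unstimulated (left) and stimulated (right) libraries; *Areg*, *Inhba* and *Adcyap1* are left out on the left for lack of counts. *Csf1* KO against HZ lies at -0.38 on the left and 0.44 on the right, and *Adcyap1* lies at 1.31 to 3.22 on the right.

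In stimulated cells, the question was whether the labelled genotype altered the level reached after 1 h of antigen. *Adcyap1* stood apart. With 11 and 8 counts in WT, it passed the filter on low counts through the stimulated HZ and KO libraries, in which it was high, so its differences from WT are not independent of that filter. It was higher in KO than in WT by 3.22 on the log2 scale (SE 0.58, adjusted p = 1.03e-05), a fold of 9.29 that stayed past the threshold with each library left out in turn. In HZ it was higher than WT by 1.90 (SE 0.60, adjusted p = 0.011), a fold of 3.74. That call was lost without the second WT library (adjusted p = 0.096) or the second HZ library (adjusted p = 0.062). KO exceeded HZ by 1.31 (SE 0.49, adjusted p = 0.045), and this call was lost without any 1 of the 4 libraries (adjusted p = 0.12 to 0.29). It was also lost with the replicate number as a block (adjusted p = 0.0504), with library totals (adjusted p = 0.0503) and without the filter on low counts (adjusted p = 0.057).

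*Inhba* was higher in stimulated KO than in WT by 0.73 (SE 0.30, adjusted p = 0.0497), at 6.31 ± 0.176 against 3.80 ± 0.768 CPM (SD, n = 2). This call was lost with DESeq2 (adjusted p = 0.055), with library totals (adjusted p = 0.052) and with each of the 4 libraries left out (adjusted p = 0.063 to 0.30). KO exceeded HZ by 0.79 (SE 0.30, adjusted p = 0.051), which did not pass, and did pass with DESeq2 (adjusted p = 0.047). HZ and WT differed by -0.05 with an interval of -0.68 to 0.57.

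*Csf1* after stimulation was lower than WT in both other genotypes. HZ was lower by 0.58 (SE 0.02, adjusted p = 2.90e-26), a fold of 0.671 just outside the threshold of 0.66. KO was lower by 0.14 (SE 0.02, adjusted p = 1.24e-06), a fold of 0.910. KO was higher than HZ by 0.44 (SE 0.02, adjusted p = 5.48e-21), the opposite of their order at rest. An opposite order in the 2 states, with no overlap between libraries in either, was found in 26.9% of all tested genes for KO against HZ and in 6.22% for KO against WT. Summed macrophage and monocyte markers were 13.2 to 13.8 CPM in stimulated WT, 16.4 to 16.8 in HZ and 16.8 to 21.3 in KO. *Cd14* stood at 1.62 and 2.12 CPM in WT, 2.71 and 2.88 in HZ, then 3.85 and 5.04 in KO. *Lyz2* stood at 4.41 and 4.80 CPM in WT, against 7.07 to 8.65 in the other 2 genotypes, and *C1qa* at 0 in all 3. Basophil markers summed to 520 to 523 CPM in WT, 465 to 472 in HZ and 513 to 521 in KO, nearly all *Cd200r3*. *Mcpt8* stood at 5.76 and 5.07 CPM in WT, 11.0 and 10.7 in HZ, then 9.85 and 11.0 in KO. *Prss34* stood at 0.774 and 0.504 CPM in WT, 0.366 and 0.406 in HZ, then 0.827 and 0.730 in KO. Megakaryocyte markers summed to 1661 to 1678 CPM in WT, 1511 to 1535 in HZ and 1766 to 1767 in KO. The part of these markers in the differences after stimulation was not tested.

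*Tgfb1* was slightly lower than WT in stimulated KO, by 0.16 (SE 0.03, adjusted p = 3.33e-06), and in HZ, by 0.12 (SE 0.03, adjusted p = 0.00025), both far from the fold threshold. *Hbegf*, *Vegfa* and *Areg* did not pass in any of the 3 comparisons. Their KO against WT intervals were -0.00034 to 0.20 for *Hbegf*, -0.15 to 0.03 for *Vegfa* and -0.62 to 0.27 for *Areg*. A difference of 1.5-fold thus lay outside the intervals of *Hbegf* and *Vegfa* and, for a lower KO level, inside that of *Areg*. *Amh* intervals again spanned more than 2 log2 units, from -1.13 to 1.08.

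Of the 8 genes, 2 were called in stimulated KO against WT, 1 in HZ against WT and 1 in KO against HZ. *Adcyap1* is in each of these counts, and its calls against WT are subject to the filter named above. The shares of all tested genes called were 12.7%, 7.89% and 5.32%. By adjusted p alone 4, 3 and 2 of the 8 passed, beside 40.4%, 34.9% and 24.9% of all genes, and the libraries did not overlap for 67.7%, 65% and 59.1% of all genes.

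**Figure D4:**
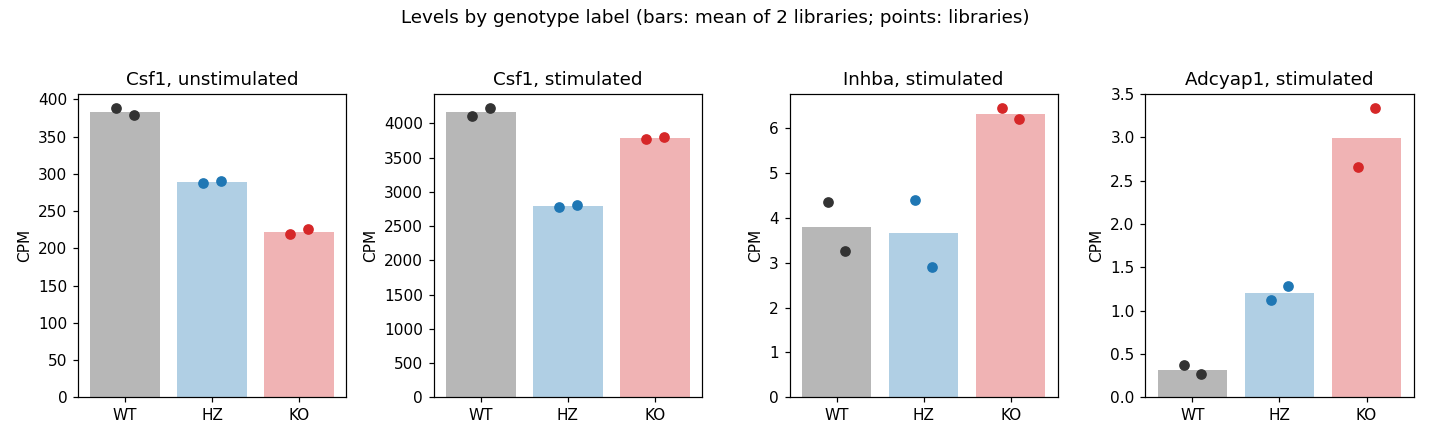
CPM (y axis, from 0, a separate scale in each panel) by genotype label (x axis); bars are means of 2 libraries and points are the libraries. *Csf1* falls from WT to HZ to KO at rest but is lowest in HZ after stimulation, and *Adcyap1* rises from 0.319 CPM in WT to 1.21 in HZ and 3.00 in KO.

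The genes whose levels followed each of the 8 most closely over the 12 libraries were found by Pearson's r on log2(CPM + 1), as a description. The libraries share their split into stimulated and unstimulated, so a high r is common among induced genes. *Hbegf* was nearest to *Il6*, *Tnf* and *Srxn1* (r = 0.999 for each) and *Vegfa* to *Rcan1*, *Tnf* and *Hbegf* itself (0.998 to 0.999). *Csf1* was nearest to *Ero1a*, *Cd93* and *Gpr171* (0.996 to 0.999). *Areg* was nearest to *P2ry10b*, *Lrrc58* and *Mst1r* (0.995 to 0.996), *Inhba* to *Plekho2*, *Fzd9* and *Tollip* (0.990 to 0.991) and *Tgfb1* to *Sgk1*, *Mex3c* and *Mex3b* (0.994 to 0.996). The nearest to *Adcyap1* were *Sik1* (0.986), *Epm2aip1* (0.973) and *Plaur* (0.968). Like *Adcyap1*, these 3 were higher in stimulated KO than WT, by 3.21, 2.05 and 2.42 on the log2 scale, and in HZ than WT by 1.47, 1.47 and 1.35. That likeness came with their choice, which used the stimulated libraries of all genotypes, and is not a separate result. For *Amh*, *Mtmr11*, *Fyb* and *Clcn4* reached only 0.745 to 0.769.

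The other genes of these pathways were taken from 11 lists of ligands, receptors, processing enzymes and feedback genes, of which 108 were tested. On stimulation of WT cells 18 of the 108 passed, beside 6.77% of all genes. In stimulated KO against WT 33 passed, beside 12.7% of all genes. The lists were chosen with earlier results of these data known, so nothing is read from these counts or from those of single lists below. Genotype differences of list genes are given for KO against WT only, and are not thereby particular to KO, since HZ is left out.

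Among feedback inhibitors of EGFR and MAPK signalling, 4 of 13 tested genes rose on stimulation in WT. *Errfi1*, which encodes the EGFR inhibitor MIG6, went from 127 ± 3.63 to 845 ± 15.8 CPM, a log2 change of 2.74 ± 0.04 (SE, adjusted p = 9.88e-46). *Spry2* rose by 3.26 (adjusted p = 5.78e-40) and *Spry1*, a related Sprouty inhibitor of MAPK signalling, by 6.61. *Spry1* passed the filter on low counts through the stimulated libraries, in which it was high, so its rise is given as a description. Between stimulated KO and WT, 2 were higher in KO and 2 lower. *Spry1* was higher by 2.09 (adjusted p = 1.65e-17), whereas *Errfi1* was lower by 1.10 (SE 0.04, adjusted p = 1.21e-29) and *Spry4* differed by -2.50 (SE 0.51, adjusted p = 6.64e-05).

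Of the genes that promote or restrain the release of EGF-family ligands from the membrane, 1 of 9 passed in the WT response. In stimulated KO against WT 4 passed, 2 in each direction. *Rhbdf2*, which encodes the iRhom2 partner of the sheddase ADAM17, rose by 1.13 (SE 0.05, adjusted p = 5.38e-25) in WT, or by 0.82 when scaled by library totals, under the 2-fold threshold. In stimulated KO it was lower than in WT by 1.26 (SE 0.05, adjusted p = 4.48e-26). *Adam8*, a membrane protease, was lower in KO by 1.31 (SE 0.04, adjusted p = 1.29e-32), at 165 against 407 CPM. *Timp3*, which encodes an inhibitor of ADAM17, was higher by 1.27 (SE 0.10, adjusted p = 2.29e-15).

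Of the other EGF-family ligands and receptors, 4 of 13 were tested. In the WT response edgeR called 0 and DESeq2 0, with 1 at an unadjusted p below 0.05. In stimulated KO against WT, the ligand *Tgfa* was higher by 1.39 (adjusted p = 2.76e-05) and the receptor *Erbb3* lower by 0.86 (adjusted p = 0.0061). The *Erbb3* call was lost without the first WT or the first KO library (adjusted p = 0.064 and 0.060). *Egfr*, *Erbb2* and *Erbb4*, the remaining receptors of the family, were too low to be tested.

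Around *Vegfa*, 14 of 20 listed genes were tested and 1 was called on stimulation of WT, *Vhl*, which encodes the ligase subunit that removes HIF. It was lower by 1.10 (SE 0.11, adjusted p = 2.43e-11), and by 0.91 without the first stimulated WT library, short of 2-fold. Higher in stimulated KO than WT were the VEGF co-receptor *Nrp1*, by 1.88 (adjusted p = 1.23e-16), and *Vegfc*, the ligand of lymphatic vessels, by 1.32 (adjusted p = 9.83e-16). Beside *Csf1*, the haematopoietic factor *Csf2* (GM-CSF) had 0 and 0 counts in unstimulated WT and 694 and 778 in stimulated WT, at least 281-fold above the floor. *Csf2* passed the filter on low counts only through the stimulated libraries, in which it was high. Its change on stimulation is therefore a description. Neither *Csf2* nor *Csf1r* was called in stimulated KO against WT by edgeR or DESeq2 (0 of 2, and 0 at an unadjusted p below 0.05). *Csf1r* stood at only 0.774 and 0.168 CPM in stimulated WT and 0.0359 and 0.174 in KO. For *Csf1r* the lack of a call therefore does not show equal levels.

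Around *Inhba*, 8 of 13 listed genes were tested and 1 was called on stimulation of WT. This was *Fst*, which encodes follistatin, the secreted protein that binds activin. It went from 1.35 ± 0.696 to 35.9 ± 2.04 CPM (log2 change 4.74, SE 0.16, adjusted p = 1.96e-29). Comparing stimulated KO with WT, 1 gene was higher and 2 lower. The activin receptor gene *Acvr1b* was higher by 0.65 (adjusted p = 3.93e-08), and by 0.55 without the second KO library, short of 1.5-fold. *Acvr2b* was lower by 0.83 (adjusted p = 0.031), which was lost without the first WT library (0.26 lower, adjusted p = 0.65) or the first KO library (adjusted p = 0.19).

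Around *Tgfb1*, 18 of 26 genes were tested. In the WT response 3 were higher and 1 lower. The SMAD corepressor gene *Tgif1* rose by 2.23 (adjusted p = 4.80e-23). *Itgb6*, part of an integrin that frees TGF-β, was lower by 1.51 (adjusted p = 0.020), lost without the second unstimulated or the second stimulated WT library (adjusted p = 0.55 and 0.32). Without the first stimulated WT library the log2 change was -3.14. In stimulated KO against WT 4 were higher. They included the co-receptor *Eng* by 1.78 (adjusted p = 1.31e-17), *Itgb6* by 2.26 (adjusted p = 0.00042), or 3.88 without the first WT library, and the latent TGF-β binding protein gene *Ltbp3* by 0.63 (adjusted p = 3.15e-10), or 0.58 and short of 1.5-fold without the second KO library.

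Around *Amh*, 8 of 11 receptor and SMAD genes were tested, and *Id3*, a target of BMP signalling, was the 1 gene called in each of both comparisons. It was lower by 1.63 on stimulation of WT (SE 0.19, adjusted p = 4.39e-10) and higher by 1.55 in stimulated KO than WT (SE 0.19, adjusted p = 3.85e-09).

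Around *Adcyap1*, 3 of 10 genes were tested, and the PACAP receptor gene *Adcyap1r1* was not among them. In the WT response 1 was higher, *Ramp3*, a receptor activity-modifying protein gene, by 3.72 (adjusted p = 1.39e-15), and 1 was lower. In stimulated KO against WT, *Ramp1* was higher by 3.23 (adjusted p = 1.99e-07), on 55 and 81 counts in KO against only 7 and 8 in WT. *Ramp3* was higher by 0.90 (adjusted p = 0.00020).

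Of the enzymes that process prohormones, 6 of 14 were tested. In the WT response edgeR called 0 and DESeq2 0, with 2 at an unadjusted p below 0.05. A higher level in stimulated KO than WT was called for 2 of them.

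Among 23 other growth factor genes tested, 2 rose in the WT response and 1 was lower. *Ccn1*, a matricellular growth regulator gene, rose by 5.44 (adjusted p = 5.73e-26) and *Gdf15*, a stress-responsive TGF-β superfamily gene, by 3.42 (SE 0.06, adjusted p = 1.24e-42). *Mdk* (midkine) was lower by 2.75 (adjusted p = 0.0033), lost without the second stimulated WT library (adjusted p = 0.090) and at -4.63 without the first. After stimulation, 6 were higher and 3 lower in KO than in WT. *Hgf*, the hepatocyte growth factor gene, was higher by 2.56 (adjusted p = 1.15e-19) and *Calca*, which encodes calcitonin and the neuropeptide CGRP, by 1.34 (adjusted p = 3.15e-29), at 234 ± 5.70 against 92.5 ± 1.52 CPM. *Bmp1*, the procollagen protease gene, was lower by 3.72 (SE 0.73). It passed the filter on low counts only through the WT libraries, in which it was high, so this difference is not independent of that filter.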

How the data were processed

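Bulk RNA-seq of BMMCs was measured in 12 libraries, 6 groups of 2. The authors deposited raw read counts and FPKM values, each for 16234 genes. The submitters' processing notes name fastp, HISAT2, HTSeq and GRCm39, with no versions or roles, and the authors did not pool replicates.

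Counts were fitted in R 4.3.3 with edgeR 4.0.16 (quasi-likelihood, TMM scaling, filterByExpr, 12208 genes tested), 1 mean per group over all 12 libraries. Fold changes used a prior count of 0.125, and confidence intervals came from the fitted standard errors with 6 residual and 38.9 prior degrees of freedom. Two-sided p-values were corrected by the Benjamini-Hochberg method across the tested genes. A response call needed at least 2-fold, and a genotype call a fold of at least 1.5 or at most 0.66, each with an adjusted p below 0.05. Depth was 29697958 to 35531667 counts per library, and the biological coefficient of variation was 4.01%. FPKM served only to compare genes. Alternatives used DESeq2 1.42.0, limma 3.58.1, other scalings and filters, and each library left out.

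The genes and lists were chosen with earlier results of these data known. Named genes were the 8 genes, *Elk4*, the 3 nearest genes of each, and up to 3 list genes per list with the largest change among those called in the WT response and in stimulated KO against WT, with at least 30 counts on average in the higher group. Some list genes that met this rule are not reported here. No promoter is printed for *Hbegf*, *Amh* or *Tgfb1*.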

Additional observations from a re-analysis of the deposited data

Results flagged for a closer look

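For 3 genes a pair of genotype labels stood in opposite order in the 2 states, with no overlap between libraries in either. The difference between the states was not tested, because it contains the response for which the genes were chosen. *Csf1* was lower in KO than in HZ at rest and higher after stimulation, and the log2 difference moved by 0.82 (SE 0.03). *Hbegf* was lower in KO than in WT at rest and higher after stimulation, by -0.52 and 0.10, a move of 0.62 (SE 0.15), and the difference after stimulation did not pass the threshold (adjusted p = 0.11 with edgeR). *Adcyap1* moved by 2.56 (SE 1.25) between KO and HZ, and its resting order rests on 3 counts in KO against 7 in HZ, with 3 counts in both the higher KO and the lower HZ library. The same kind of opposite order was found in 26.9% of all tested genes for KO against HZ and in 6.22% for KO against WT.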

How the results depend on the processing

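With 2 libraries a group, an exact test of these libraries alone cannot go below p = 0.33, so the calls rest on a spread shared over genes and groups. Low counts limit *Areg*, *Inhba* and *Adcyap1* at rest and *Amh* in both states. The causes of the changes below were not tested, except that limma on FPKM tested 5 of the 8 genes. It left out *Inhba*, *Amh* and *Adcyap1*, whose mean over the libraries was under 0.5 FPKM. Its counts of 0 between stimulated genotypes therefore say nothing of *Inhba* and *Adcyap1*, the genes called there with edgeR.

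Of the 8 genes, limma with either pseudocount called 4 in the WT response. In unstimulated KO against WT, a 2-fold threshold called 0, no fold threshold 3, and leaving out a library 1 to 2. In unstimulated HZ against WT, limma called 0 (pseudocount 1) or 1 (pseudocount 0.1), a fit of the compared groups 1, a 2-fold threshold 1, no fold threshold 4, and leaving out a library 1 to 2. In unstimulated KO against HZ, no fold threshold called 1. In stimulated KO against WT, DESeq2, DESeq2 size factors, library totals and a 2-fold threshold called 1 each, limma 0 with either pseudocount, no fold threshold 4, and leaving out any library 1. In stimulated HZ against WT, limma called 0 with either pseudocount, no fold threshold 3, and leaving out a library 0 to 1. In stimulated KO against HZ, DESeq2, DESeq2 size factors, the compared groups alone and no fold threshold called 2 each, library totals and limma 0, and leaving out a library 0 to 1. Of the pathway list genes, no fold threshold called 51 in the WT response and 61 in stimulated KO against WT, where limma with pseudocount 1 called 17. The list alternatives were chosen after seeing the data.

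The genotype differences that changed sign were not called in the reported fit. At rest, KO against HZ turned to 0.011 (library totals), 0.010 and 0.011 (limma) for *Vegfa* and to 0.0049, 0.0050 and 0.0050 for *Tgfb1*. After stimulation, *Hbegf* in HZ against WT turned to -0.016 with DESeq2 and with its size factors and to -0.011 with the compared groups alone, and *Areg* in KO against HZ to -0.0079 (library totals), -0.0085 and -0.011 (limma). With a library left out, unstimulated KO against HZ ran from -0.11 to 0.092 for *Vegfa*, -0.041 to 0.0072 for *Tgfb1* and -0.38 to 1.11 for *Amh*, and unstimulated HZ against WT from -0.036 to 0.0090 for *Tgfb1*. Stimulated KO against WT ran from -0.44 to 0.049 for *Areg* and -0.22 to 0.20 for *Amh*, HZ against WT from -0.046 to 0.064 for *Hbegf*, -0.00065 to 0.076 for *Vegfa* and -0.38 to 0.21 for *Inhba*, and KO against HZ from -0.24 to 0.25 for *Areg*.

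Deviations of equally numbered libraries in the 2 states correlated at -0.030 in WT, 0.034 in HZ and -0.023 in KO over 10441 genes. Shared cultures that differ little would give such values too, so whether equal numbers mark pairs cannot be told from them. With the replicate number as a block, the fit called 7 of the 8 genes in the WT response, 1 in unstimulated KO against WT and 2 in stimulated KO against WT, as without it. *Adcyap1* in stimulated KO against HZ lost its call (log2 difference 1.31, adjusted p = 0.0504) and *Inhba* gained one (0.81, adjusted p = 0.041).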
